A study of Homo sapiens with 20 samples.

Results

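Peaks whose summit lies in the middle of a protein-coding transcript made up most of the acRIP-seq peaks of protein-coding genes in K562 cells. A peak was taken as a middle peak when its summit, divided by the length of the transcript, was above 0.2 and at most 0.8. This window is itself most of the transcript, so evenly placed summits would also put most rows in it. Of 495936 rows in 4 peak lists, 326429 lay on protein-coding transcripts and 210867 of these were middle rows, from 9992 genes and 28806 transcripts. A row is 1 summit on 1 transcript, so a stretch shared by several isoforms of a gene is listed once per isoform. The wild type list of the ac4C antibody (IP) held 43419 middle rows in 7313 genes and the wild type IgG list 43370 rows in 7399 genes. The knockout IP list held 65129 rows in 8580 genes and the knockout IgG list 58949 rows in 8201 genes.

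NAT10 transfers an acetyl group to cytidines of ribosomal, transfer and messenger RNA and so makes N4-acetylcytidine (ac4C), and ac4C in coding sequence has been linked to mRNA stability and translation. In acRIP-seq, fragmented RNA is pulled down with an antibody against ac4C, and the same RNA with non-specific IgG shows what binds without that antibody. K562 is an established human leukaemia cell line with erythroid features that makes embryonic and fetal globins.

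The study set parental K562 cells (wild type) beside a derivative from which CRISPR-Cas9 had removed an exon of NAT10 (knockout). Both were grown in the same medium and are given no other treatment in the labels, which do not say whether the knockout is 1 clone. Each genotype had 2 libraries each of input, IgG and IP, and 2 each of RNA-seq and Ribo-seq. Per the names of the deposited lists, peaks were called against input on merged libraries, so each group had 1 peak list and no comparison of peaks could be tested against replicates. Genotype and any difference in library or sequencing between the acRIP-seq libraries of wild type and knockout cannot be told apart. The RNA-seq checked the labels: NAT10 (ENSG00000135372.9) had 1439 and 1837 counts in wild type and 903 and 925 in knockout, or 139 and 144 against 49.9 and 49.3 CPM (counts scaled to library size). Both knockout values were below both wild type values, at a log2 fold change (knockout minus wild type) of -1.51 (SE 0.09, adjusted p = 0.000102, edgeR quasi-likelihood test with Benjamini-Hochberg adjustment). NAT10 still had middle peaks in every list, 14 and 12 rows in wild type IP and IgG and 19 and 16 in knockout IP and IgG. Of the markers checked, the erythroid regulators GATA1, TAL1 and KLF1 were above 134 CPM in every RNA-seq library, while among markers of other cell types the B cell marker MS4A1 had no count and the monocyte marker CD14 stayed at or below 0.27 CPM. The epithelial marker EPCAM (31.5 to 49.0 CPM) and the myeloid enzyme LYZ (6.02 to 14.0 CPM) were the highest of those other markers. RNA-seq libraries held 10388717 to 18778485 counts and Ribo-seq libraries 621287 to 1220308. The knockout RNA-seq pair differed by little more than sampling noise (chi-square over genes, 1.03 times its degrees of freedom, against 12.5 times in wild type). Its 2 libraries were therefore summed into 1 sample. The labels do not say that replicates were separate cultures, and a p-value here rests only on the spread between libraries, which may be technical. With the knockout pair summed, the RNA test takes that spread from the 2 wild type libraries alone.

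Middle peaks were broad in wild type and narrower in knockout. The called interval had a median length of 894 bases in wild type IP and 890 in wild type IgG, against 406 in knockout IP and 377 in knockout IgG. It covered a median of 63.4% and 62.6% of the transcript in the wild type lists and 18.2% and 15.2% in the knockout lists. Transcripts were shorter in wild type, with medians of 2542 and 2593 bases against 3679 and 3789. Several summits shared 1 interval in 45.4% of the intervals of either wild type list, 42.7% in knockout IP and 40.5% in knockout IgG. The length difference followed the genotype and was present for both antibodies. The gene with most middle rows was CTSB, a lysosomal protease, in wild type (97 IP rows and 68 IgG rows over 50 and 44 transcripts). In knockout it was PLEC, a very long cytoskeletal linker gene, with 239 and 235 rows over 12 and 13 transcripts.

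The fold of a peak is the authors' own enrichment value and is used here to describe and rank peaks inside a list. Its lowest middle value was 1.58 in each wild type list, 2.09 in knockout IP and 2.28 in knockout IgG. Wild type and knockout folds set side by side below are listed values on unlike scales and were not tested as a change. The median fold of middle rows was 3.89 in wild type IP (quartiles 2.47 and 7.63) and 3.86 in wild type IgG (2.47 and 7.59). It was 4.48 in knockout IP (3.13 and 7.40) and 4.70 in knockout IgG (3.42 and 7.69). The median of the ac4C antibody list was just above that of its IgG list in wild type and below it in knockout. The median −log10 q was 35.1 and 32.3 in wild type and 15.0 and 12.4 in knockout. Folds of at least 100 occurred in 476 and 484 rows of wild type IP and IgG, and in 104 and 89 rows in knockout. Every fold was a whole multiple of a single step within its list (0.0309, 0.0330, 0.104 and 0.142, each to within 0.05 of a step), and each fold went with exactly 1 p-value. The values thus show no input level that varied from row to row. At the borders of the rule, rows within 0.01 inside 0.2 had a median fold of 3.86 in wild type IP and those just outside 3.82, and in knockout IP 4.17 and 4.28. At 0.8 the values inside and outside were 3.71 and 3.99 in wild type IP and 4.90 and 4.80 in knockout IP.

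Middle rows were 67.4% of protein-coding rows in wild type IP and 66.4% in wild type IgG, and 63.0% and 63.1% in knockout IP and IgG. With 1 transcript per gene the shares were 62.3%, 61.6%, 61.1% and 61.6%, so the wild type and knockout lists nearly met. Counted by genes, 92.4% (Wilson 95% interval 91.8 to 93.0, counting error only) of the genes with any protein-coding peak had a middle row in wild type IP and 92.1% in wild type IgG. The shares were 85.0% in knockout IP and 84.3% in knockout IgG. Rows at the start of the transcript took 18.8% in knockout IP, against 16.2% in knockout IgG, 15.1% in wild type IP and 14.7% in wild type IgG.

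**Figure D1:**
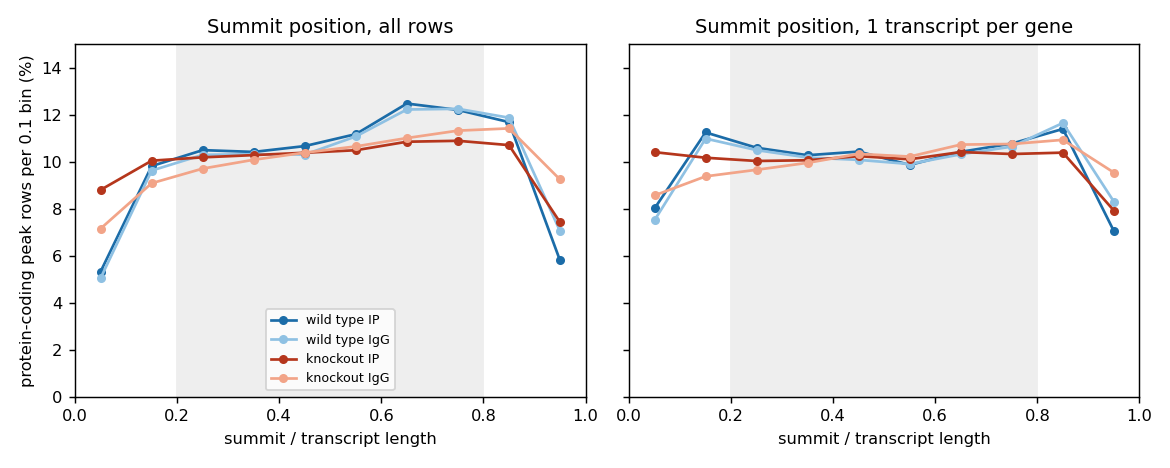
Share of protein-coding peak rows (%) in each bin of 0.1 of the transcript, from the 5′ end (0) to the 3′ end (1), for the 4 peak lists; the shaded span from 0.2 to 0.8 is the middle, all rows are on the left and 1 transcript per gene on the right. The wild type IP and IgG lines run close together, and the knockout lists hold more rows than the wild type lists in the first bin.

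The IP and IgG lists of wild type cells held nearly the same middle peaks. Of the wild type IP rows, 97.0% shared at least 1 base with a wild type IgG peak on the same transcript, and 97.2% of IgG rows shared one with IP. Their summits were close: the median distance from an IP summit to the nearest IgG summit was 25 bases, and 67.1% were within 50 bases. At the level of genes, 7119 had a middle row in both, which is 97.3% of the IP genes and 96.2% of the IgG genes. The 1304 IP rows (3.00%) without an IgG peak had a median fold of 1.93, against 4.02 for those with one. The lists thus differed mainly in rows near the lower end of the fold range, which began at 1.58 in both.

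In knockout cells 89.9% of IP rows overlapped an IgG peak and 94.2% of IgG rows overlapped an IP peak. The median summit distance was 24 bases from IP to IgG and 21 from IgG to IP. The rows without an IgG peak were more numerous than in wild type, 6549 (10.1%) in 2913 genes, with a median fold of 2.82 against 4.90 for overlapping rows. The reverse set was also larger than in wild type, 3430 IgG rows (5.82%) without an IP peak against 1214 (2.80%). The IP rows that lacked an IgG peak were thus a larger share in the cells without intact NAT10 than in the parental cells. Peaks at the start of transcripts lacked an IgG peak more often in knockout IP (16.0% of rows) than middle rows (10.1%) or rows at the end (8.55%). In wild type IP the start, middle and end shares were 3.15%, 3.00% and 3.39%.

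Across genotypes the middle peaks matched far less closely than across antibodies. Of wild type IP rows, 78.3% overlapped a knockout IP peak, but only 27.3% had a summit within 50 bases of one. Of knockout IP rows, 74.5% overlapped a wild type IP peak and 18.1% were within 50 bases by summit. The IgG lists differed between genotypes to a like extent: 74.7% and 74.0% of rows overlapped and 26.4% and 19.3% of summits were within 50 bases. The median distance to the nearest summit was 25 bases across antibodies in wild type, 80 bases from wild type IP to knockout IP and 145 bases the other way. For IgG it was 81 and 139 bases. All median distances given are over rows whose transcript had a peak in the other list. Between the IP lists these were 35520 of 43419 wild type rows and 55242 of 65129 knockout rows. The shares within 50 bases are over all middle rows. Wild type IP rows at the start and end of transcripts are given for comparison: 16.7% and 20.8% lacked a knockout IP peak, against 21.7% of middle rows, and 29.2% and 26.5% had a summit within 50 bases. By gene, 6155 had a middle row in both IP lists, 84.2% of the wild type genes and 71.7% of the knockout genes.

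**Figure D2:**
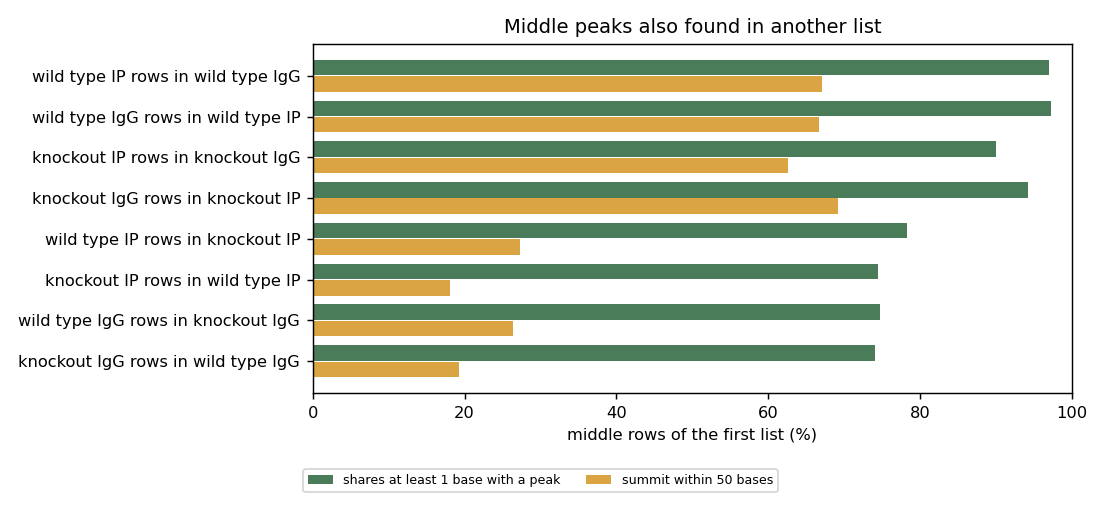
Share of middle rows (%) of the first list that share at least 1 base with any peak of the second list on the same transcript (green) or have a summit within 50 bases (yellow). Pairs of antibodies within a genotype (top 4) reach 89.9% to 97.2% by overlap, and pairs of genotypes within an antibody (bottom 4) reach 74.0% to 78.3%.

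Genes ranked by their highest middle fold were also most alike between antibodies. Spearman's rho across genes was 0.983 between wild type IP and IgG (7119 genes) and 0.924 between knockout IP and IgG (7863 genes). It was 0.400 between the IP lists of the 2 genotypes (6155 genes) and 0.325 between their IgG lists (5951 genes). Genes are not independent replicates, the pairs within a genotype share cells and input, and these values describe the lists only. The RNA-seq level of the same genes was far more alike between genotypes, with a rho of 0.978.

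**Figure D3:**
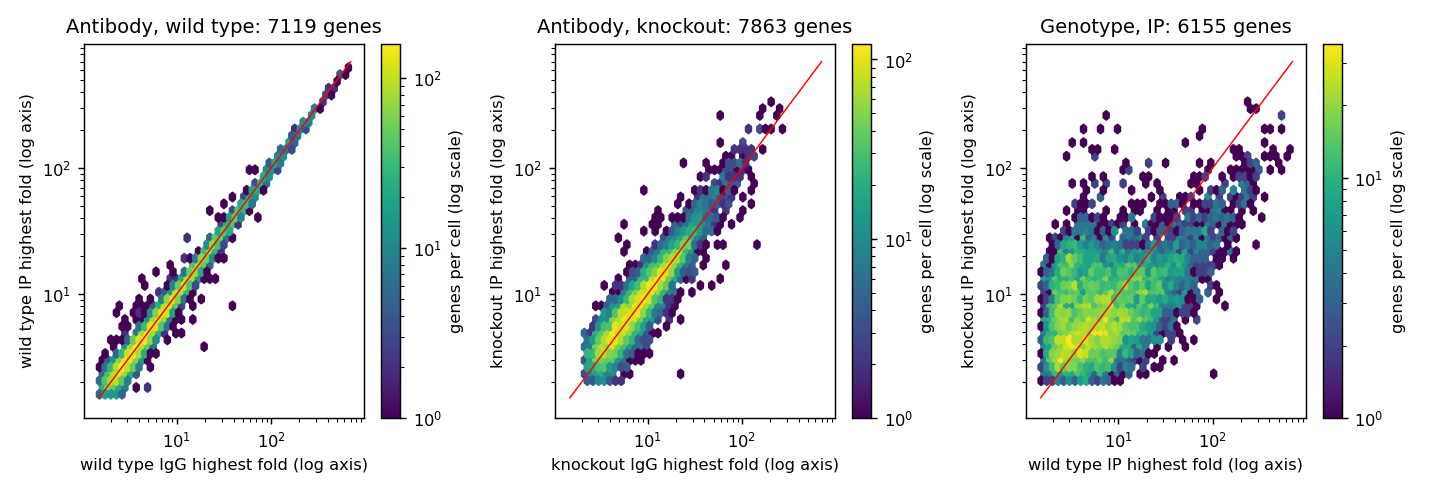
Highest middle fold of each gene (log axes) in wild type IP against wild type IgG, knockout IP against knockout IgG, and knockout IP against wild type IP; colour gives the number of genes per cell and the red line marks equal values. The first cloud hugs the line (rho 0.983), the second is wider (0.924) and the third spreads broadly (0.400).

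The design asks which mRNA ac4C is made by NAT10, a question that bears on peaks found by the ac4C antibody in wild type cells and in no other list. These numbered 816 rows (1.88% of wild type IP middle rows) in 540 genes, with a median fold of 1.95. The like set was larger in knockout IP, with 2915 rows (4.48%) in 1400 genes, and IgG had such rows too: 579 in wild type and 1995 in knockout. Rows in all 4 lists made up 70.4% of wild type IP and 68.1% of knockout IP middle rows. Of the 540 genes, 476 (88.1%) had a middle row in another list on a different stretch or isoform, and 24 had no row of any kind elsewhere. In knockout IP 1191 of the 1400 genes (85.1%) had a middle row elsewhere and 88 had no other row.

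The 8 highest of the wild type IP rows alone, among genes of at least 5 mean CPM and counting each gene once, had folds from 3.40 to 3.93. They lay on PRR7 (transcript PRR7-202, 1345 bases, summit at base 994 counted from 1 at the 5′ end), CCDC12, GNAS, USP39, CASP6, ST6GALNAC1, CD151 and QKI. PRR7 encodes a proline-rich membrane protein, and its highest middle fold was 3.93 in wild type IP and 3.10 in wild type IgG, with no middle row in knockout. QKI, an RNA-binding regulator of splicing, had the row on QKI-213 (613 bases, summit at 230, fold 3.40). On its other isoforms the highest QKI folds were 6.92 and 7.09 in wild type IP and IgG and 12.9 and 12.2 in knockout. For GNAS, the stimulatory G protein alpha subunit, the row lay on GNAS-255 (573 bases, summit at 406, fold 3.71), while the gene reached 39.7 and 40.6 in wild type and 15.7 and 12.0 in knockout. For CASP6, an executioner caspase, the row on CASP6-203 had a fold of 3.68, and the gene reached 5.11 in wild type IgG. All 8 genes carried middle rows in the wild type IgG list as well, and for 7 of the 8 the transcript with the lone row was at most 613 bases long.

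In knockout IP the highest rows alone included those on SIRPA, WDR33, COMMD1, NUFIP2, GNB4, SETD1A and PTPA, with folds from 6.99 to 11.2. SIRPA, the inhibitory receptor for CD47, was the only one of these genes without a middle row in any other list (SIRPA-204, 4570 bases, summit at 2005, fold 11.2). Its RNA-seq counts were 147 and 157 in wild type and 44 and 46 in knockout, or 14.15 and 12.34 against 2.43 and 2.45 CPM. The RNA fell by 2.43 on the log2 scale (SE 0.21, adjusted p = 0.000591, edgeR quasi-likelihood test with Benjamini-Hochberg adjustment). SIRPA met the minimum mean CPM for named genes only through its wild type level and was below that minimum in knockout. Such a gene is lower in knockout by selection, so its fall in RNA cannot be weighed against its peak in knockout alone. SETD1A, a histone H3 lysine methyltransferase, had the row on SETD1A-202 (315 bases, summit at 168, fold 7.40). The gene reached 18.1 in knockout IP and 15.8 in knockout IgG against 2.94 in either wild type list, while its RNA, at a log2 fold change of -0.0012, did not pass the test. Of the genes named here with lone rows, CD151 and QKI and, in the knockout set, SIRPA and GNB4 passed the RNA test. CD151, a tetraspanin, fell by 0.82, QKI rose by 0.65 and GNB4, a G protein beta subunit, rose by 0.37 on the log2 scale.

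Rows that overlapped a knockout IP peak and neither IgG list numbered 139 in wild type IP, in 115 genes. The highest of them had folds of 2.84 to 4.76. EXOSC5, a subunit of the RNA exosome, led with a summit at base 134 of EXOSC5-203 (404 bases, fold 4.76), and its highest fold elsewhere was 18.9 in wild type IP and 17.6 in wild type IgG. SLC43A3, PDE4DIP, NAE1, NCAPH2, ARHGAP1 and JOSD1 followed, all with middle rows in both IgG lists at other places. None of these genes passed the RNA test, with log2 fold changes from -0.14 to 0.23. IgG lists also held rows without an IP peak of their genotype. Over all genes these reached a fold of 44.4 in wild type, against 4.76 for wild type IP rows without IgG. In knockout the order was the reverse, with 10.4 for such IgG rows and 13.2 for IP rows without IgG. Among genes of at least 5 mean CPM a narrower set was ranked, the IgG rows that overlapped no peak of either IP list. Its highest rows were MCUR1-203 at a fold of 4.45, REXO2-216 at 4.35 and CHIC2-204 at 4.25 in wild type. In knockout they were APOL6-201 at 8.97, RBM48-202 at 8.83 and DIS3-201 at 8.54.

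The highest middle peaks lay on globin, ribosomal protein, ferritin, elongation factor and histone genes, and their ranking differed more between genotypes than between antibodies. HBG2, a fetal gamma globin, had a fold of 585 in wild type IP (HBG2-201, 586 bases, summit at 294) and 606 in wild type IgG (summit at 298), against 127 and 126 in knockout IP and IgG. HBG1, the other gamma globin, was at 536, 559, 110 and 96.1 in the same order. The RNA-seq level of both was higher in knockout. HBG2 was at 125 and 133 CPM in wild type and 189 and 190 in knockout, a log2 fold change of 0.55. HBG1 was at 33.5 and 35.1 CPM against 78.5 and 76.2, a log2 fold change of 1.17. These 2 genes are near-identical copies, as are HBA1 and HBA2, and their reads could have been split between them. HBE1, the embryonic epsilon globin, had the highest fold of either wild type list (629 and 628) and 134 and 123 in knockout, although its RNA-seq level was only 0.8 to 2.6 CPM. HBZ, the embryonic zeta globin, stood at 280 and 289 in wild type and at 24.2 and 18.2 in knockout. Its RNA-seq level was ordered the other way, 57.9 and 59.3 CPM in wild type and 242 and 244 in knockout. At 5 or more mean CPM, 7 of 7 globins had a middle peak in the wild type lists and 6 of 7 in the knockout lists, HBD being the one without.

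Cytosolic ribosomal protein genes, the protein subunits of the ribosome, were covered almost completely: 81 of 82 in each wild type list, 80 in knockout IP and 79 in knockout IgG. The median of their highest folds was 216 and 215 in wild type and 69.8 and 58.6 in knockout. RPS12, among the 5 highest genes of every list, had folds of 532, 559, 264 and 226, with the summit between bases 247 and 265 of RPS12-201 (503 bases). RPLP1, a stalk protein, was at 527 and 552 in wild type, 256 in knockout IP and 55.5 in knockout IgG, the widest gap between antibodies among the genes ranked highest. Its summit in wild type IP, at base 237 of RPLP1-201 (1174 bases), fell just inside the lower border, at 0.201 of the transcript. A summit slightly nearer the 5′ end would not count as a middle row. RPLP1 had 5 middle rows in knockout IP and 3 in knockout IgG, and the part of the border in its gap was not tested. FTL, the ferritin light chain that stores iron, was at 515 and 516 in wild type and 208 and 258 in knockout, where IgG was above IP. EEF2, the translocation factor of translation, had listed folds of 244, 247, 287 and 247, on scales that differ between genotypes. It was among the 5 highest genes of the knockout lists but not of the wild type lists. Its RNA log2 fold change was -0.67. Mitochondrial ribosomal proteins followed the cytosolic ones at lower values, with a median of 21.4 and 22.3 in wild type and 7.82 and 7.83 in knockout.

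Replication-dependent histone genes mostly had higher listed folds in the knockout lists than in the wild type lists, whose fold scales differ. Their mRNAs end in a stem-loop and mostly lack a poly(A) tail. Of 44 at 5 or more CPM, 33 and 34 had a middle peak in wild type IP and IgG and 40 in each knockout list, and the median highest fold was 6.99 and 6.63 in wild type against 91.0 and 49.9 in knockout. H4C3, a histone H4 gene, had folds of 6.99 and 7.32 in wild type and 264 and 160 in knockout, with the summit at base 217 of H4C3-201 (405 bases) in knockout IP. H1-4, a linker histone, stood at 4.36 and 4.62 in wild type and 198 and 114 in knockout, and H3C2 stood at 6.86 and 5.57 against 204 and 160. H1-5 and H4C4 had no middle row in wild type and reached 93.2 and 101 in knockout IP. Some members did not follow: H2BC12 was at 278, 282, 282 and 169 and H1-2 at 230, 252, 347 and 199. The RNA-seq level of H4C3 was 666 and 631 CPM in wild type and 643 and 651 in knockout. H2BC12 was at 825 and 887 CPM against 1097 and 1101, a log2 fold change of 0.36 that did not pass (adjusted p = 0.0614, edgeR quasi-likelihood test with Benjamini-Hochberg adjustment). H1-2 was at 0.23 and did not pass either. The difference was in the IgG lists as in the IP lists. The labels give polyadenylated RNA as the molecule and the protocol describes depletion of ribosomal RNA in both genotypes, and the part of RNA selection in this difference was not tested. Several histone genes have near-identical copies, such as H2AC18 and H2AC19, which had almost no RNA-seq counts and folds of 74.2 and 78.4 in wild type IP.

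**Figure D4:**
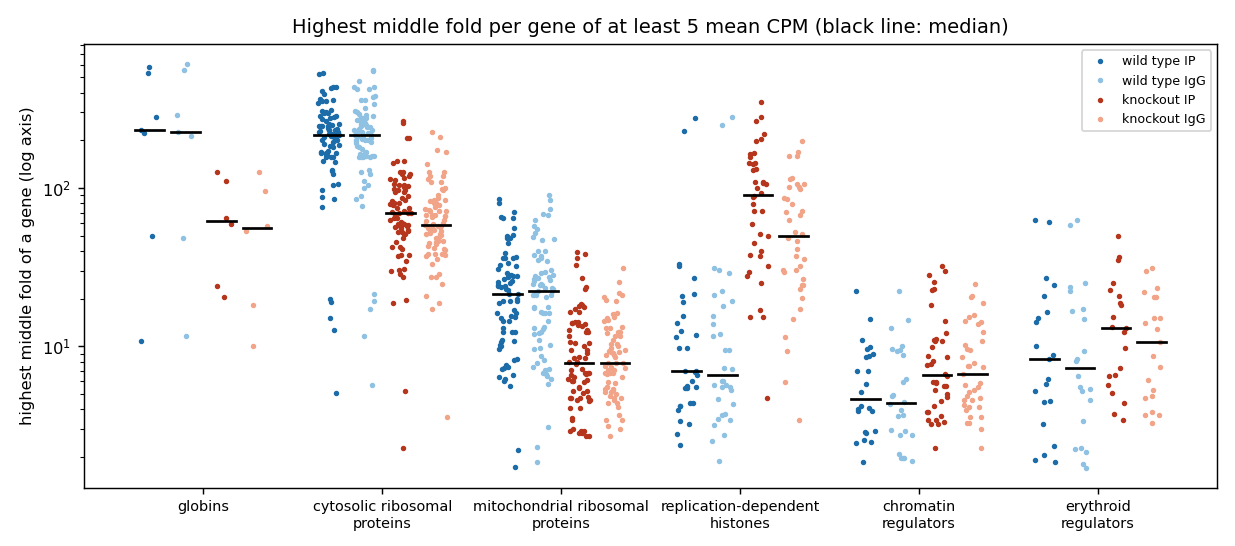
Highest middle fold of each gene (log axis) for 6 gene groups in the 4 lists, 1 point per gene of at least 5 mean CPM that has a middle peak, with the median as a black line. Globins and ribosomal proteins sit higher in wild type and histones higher in knockout, and IP and IgG of a genotype sit close to each other.

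More chromatin regulators and zinc finger genes had a middle peak in the knockout lists than in the wild type lists. Of 41 chromatin regulators, 24 and 26 had a middle peak in wild type IP and IgG and 40 and 39 in knockout, with median highest folds of 4.67, 4.40, 6.57 and 6.69. Of 311 ZNF genes, which encode zinc finger transcription factors, 112 and 118 had a middle peak in wild type and 192 and 181 in knockout, with medians of 3.12 and 3.07 against 7.46 and 7.97. For comparison, among all 10032 protein-coding genes at 5 or more CPM the counts were 6834, 6897, 7119 and 6767, and the medians 5.66, 5.71, 7.30 and 7.40.

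Erythroid regulators had middle peaks in 21 to 22 of 23 genes in every list. GATA1, the master regulator of erythroid genes, was at 61.3 and 58.1 in wild type and 49.8 and 31.3 in knockout, with 362 and 368 CPM in wild type and 277 and 267 in knockout. KLF1, which activates adult globin, was at 62.5 and 62.5 in wild type and 36.8 and 29.8 in knockout. MYB, a factor of immature progenitors, and ZBTB7A, a repressor of fetal globin, were low in wild type (2.07 and 2.24, and 3.21 and 3.36) and higher in knockout (7.30 and 6.12, and 18.7 and 12.8). BCL11A, another repressor of fetal globin, was at 5.22 and 4.02 in wild type and 36.5 and 42.6 in knockout. Its RNA-seq level was no more than 0.5 CPM in any library. EPOR, the erythropoietin receptor, had peaks in wild type alone, at 6.18 and 6.50.

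Genes of heme synthesis and iron, red cell membrane and glycolysis were covered less often in knockout IgG than in wild type IgG, and cytoskeleton genes more often (27 of 29 against 25), with no test possible. Heme and iron genes had middle peaks in 19 of 23 in both wild type lists, 19 in knockout IP and 16 in knockout IgG. ALAS2, the first enzyme of erythroid heme synthesis, and PPOX, a later one, had peaks in wild type alone, at 4.51 and 5.67 and at 3.74 and 4.32 in IP and IgG. UROD, also of this pathway, was at 46.8 and 45.3 in wild type and 8.76 and 8.40 in knockout. Of 25 red cell membrane genes, 21, 22, 20 and 18 were covered, and GYPC, a glycophorin, was at 131 and 131 in wild type and 22.5 and 19.4 in knockout. All 23 glycolysis genes had middle peaks in wild type and 20 in each knockout list. Splicing factors were covered in 43 of 43 genes in every list, with medians of 13.8, 13.2, 13.2 and 12.1. RNA-modifying enzymes and readers were covered in 29, 29, 31 and 30 of 37 genes. Among them THUMPD1, the NAT10 adaptor for transfer RNA, was at 6.86 and 8.51 in wild type and 14.3 and 12.8 in knockout, and METTL3, the m6A methyltransferase, had peaks in wild type alone (3.00 and 3.76).

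Whether a gene had a middle peak followed its RNA-seq level. Below 1 CPM, 3.27% and 3.45% of the genes of the RNA-seq table with a protein-coding annotation had one in wild type IP and IgG, and 12.8% and 12.5% in knockout. From 5 to 20 CPM the shares were 36.6%, 36.8%, 40.5% and 36.6%, and from 100 to 500 CPM 91.3%, 91.7%, 97.0% and 96.1%. At 500 CPM or more every gene had a middle peak in all 4 lists (203 genes in wild type and 196 in knockout). Wilson intervals carry counting error over genes only. IP and IgG shares come from the same genes and from 1 list each, so their difference was not tested. The IP and IgG shares of wild type had overlapping Wilson intervals in every class. In knockout they did not overlap at 20 to 50 CPM (62.9% to 66.4% in IP, 57.4% to 61.0% in IgG) or at 50 to 100 CPM (84.3% to 87.1% against 81.0% to 84.1%). Across genes, the highest middle fold and RNA-seq CPM had a Spearman's rho of 0.382 and 0.374 in wild type IP and IgG and 0.211 and 0.143 in knockout, given as a description over 7304 to 8572 genes that share libraries.

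**Figure D5:**
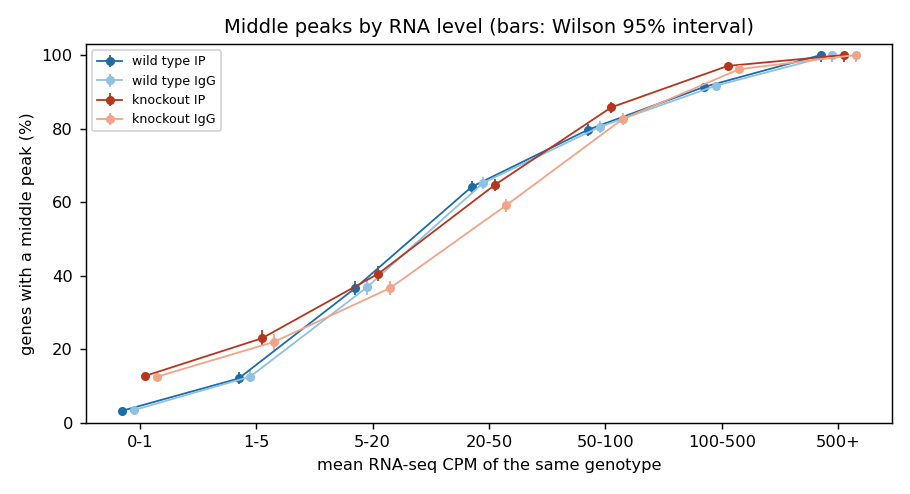
Share of protein-coding genes (%) with a middle peak by mean RNA-seq CPM of the same genotype, for the 4 lists, with Wilson 95% intervals for counting error only. Shares rise from 3.27% to 12.8% below 1 CPM to 100% at 500 CPM or more, and IP and IgG of wild type run together.

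Genes whose middle IP peaks were in wild type alone passed the RNA test at about the rate of all genes. RNA was tested over all genes in the summed knockout libraries against 2 wild type libraries (edgeR quasi-likelihood test, Benjamini-Hochberg adjusted p under 0.05), where 14% of all tested genes passed (5.17% higher and 8.79% lower in knockout). Among tested protein-coding genes 16.7% passed (5.83% higher and 10.9% lower). Of 1158 genes with middle IP rows in wild type alone, 1092 were tested and 159 passed, 39 higher and 120 lower in knockout. Of the 6155 genes in both IP lists, 5970 were tested and 452 were higher and 704 lower. Of the 2425 genes in knockout alone, 1605 were tested and 83 were higher and 146 lower. With no filter on low counts 3513 of all 36946 genes passed. The median log2 fold change over all genes was then 0.06, against -0.0006 with the filter. At that setting the balance was the reverse in both and in knockout alone. It was 1034 higher and 642 lower in both, 171 and 161 in knockout alone, and 115 and 123 in wild type alone. The split of all genes into higher and lower was not counted there. The shares that passed with the filter, 14.6%, 19.4% and 14.3%, lay near the share of protein-coding genes, and the median log2 fold changes were -0.01, 0.02 and -0.03. Sorted by the IgG lists instead, 209 of 1372, 1112 of 5763 and 201 of 1446 genes passed, shares of 15.2%, 19.3% and 13.9%. The classes overlapped strongly between antibodies: 79.4% of the genes in wild type alone by IP were so by IgG. They differed in level, with median wild type RNA of 22.5 CPM in the first class, 69.0 in the second and 6.43 in the third.

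Translational efficiency, the change of ribosome footprints relative to RNA, was tested in edgeR by an assay-by-genotype interaction term. With Benjamini-Hochberg adjustment 1 of 10299 genes passed (0.00971%), TEDC2, a centriolar tubulin-complex gene with middle IP rows in wild type alone, which was lower in knockout by a log2 change of -1.45 (SE 0.19, adjusted p = 0.0335 in the same edgeR test). It was no longer called when either wild type RNA-seq library, any Ribo-seq library or knockout RNA-seq replicate 2 was left out. At an unadjusted p under 0.05 there were 1037 genes, and DESeq2 called 24 of the genes with middle peaks in both IP lists. The median log2 change of efficiency was -0.12 in genes with middle IP peaks in wild type alone, -0.10 in genes with them in both and 0.09 in genes with them in knockout alone, against -0.06 over all genes tested. By the IgG lists the medians were -0.13, -0.09 and 0.10. The signs of the first 2 IP medians changed under some settings, as did that of the median over all genes tested. The median of genes in knockout alone stayed positive in those given here. Without knockout Ribo-seq replicate 2 the IP medians were 0.01, 0.02 and 0.19 (0.06 over all genes), and without wild type Ribo-seq replicate 1 they were 0.05, 0.04 and 0.24 (0.10 over all genes), so that the first 2 classes also changed order. With the knockout RNA libraries kept apart they were -0.0038, 0.01 and 0.19 (0.06 over all genes). The number of genes tested also differed, 11617 to 11980 under these settings against 10299 in the main fit. Under these settings the genes in knockout alone stayed above the median of all genes tested and the other classes below it. The classes also differed in RNA level, as given above, and the part of that difference was not tested.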

How the data were processed

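Per the file headers and labels, the authors deposited whole-number counts per gene for RNA-seq and Ribo-seq and 1 peak list per genotype and antibody, called against input on merged libraries. In the peak lists the authors give each row a score (10 times −log10 p), a fold (ratio) of enrichment, −log10 p and −log10 q, and the summit offset; transcript names carry length and gene but no coding limits, so the middle of a transcript is not the same as its coding region. Tools in the submitters' processing notes are Bowtie2, MACS2, bedtools and ChIPseeker, with STAR, featureCounts, SAMtools, DESeq2, cutadapt and Trimmomatic, and the build is GRCh38.p13; their roles, settings and the strand of counting are not given in the sources used here. How reads of several isoforms or near-identical genes were placed is also not given there.

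Rows were selected and compared in transcript coordinates (at least 1 shared base, or summits within 50 bases). Gene values are the highest middle row. RNA and translational efficiency were tested over all genes with edgeR 4.0.16 in R 4.3.3 (TMM, filterByExpr, quasi-likelihood, Benjamini-Hochberg adjusted p under 0.05), with the 2 knockout RNA libraries summed, which leaves 1 residual degree of freedom in the RNA test. DESeq2 1.42.0 was an alternative. On simulated data the RNA test (14987 genes) recovered 82% of genes changed by 1 log2 unit and 97% of those by 2. The efficiency test over 11834 genes recovered 29.3% and 79.5%. The simulation gave every gene the same fixed spread, not one fitted to these libraries. Its shares are therefore not the power of the tests on the real data. Of 9992 gene identifiers with middle rows, 9981 were in the RNA table. Copies on the Y pseudoautosomal region were left out of counts.

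Named were NAT10, then by −log10 q (ties by fold) among rows of fold 2 or more and genes of at least 5 mean CPM: the 5 highest of each list, the 8 highest rows alone in wild type IP, alone in knockout IP, or in both IP lists without IgG, the 3 highest rows of each IgG list without IP, and up to 3 genes per gene list with an IP row lacking IgG. Some genes that this rule gives are not reported here. Other genes named from the gene lists, most-row genes and TEDC2 were chosen after their values were seen. The members and the gene lists were chosen with earlier results of these data known. Alternatives were a stricter q, a fold minimum, 1 transcript per gene, the interval's centre, a narrower window, longer transcripts, other overlap rules, other scaling and filters, and libraries left out.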

Additional observations from a re-analysis of the deposited data

Results flagged for a closer look

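Middle rows were a larger share of protein-coding rows in IP than in IgG in wild type, by 0.961 percentage points, and a smaller share in knockout, where IP minus IgG was -0.0782. The median fold of middle rows differed likewise: IP minus IgG was 0.0358 in wild type and -0.214 in knockout. Both pairs drew attention because the sign of the antibody difference was opposite in the 2 genotypes. With 1 list per group the difference was not tested. The wild type fold difference is close to a single step of the fold scale (0.0309 in IP and 0.0330 in IgG), and the knockout one is between 1 and 3 steps (0.104 and 0.142).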

How the results depend on the processing

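Values below are in the order wild type IP, wild type IgG, knockout IP and knockout IgG; the cause of each move was not tested unless the setting itself removes rows. With 1 transcript per gene the middle rows numbered 18137, 18560, 33206 and 30837, and with a window of 0.3 to 0.7 they numbered 28804, 28659 and 43368 in the first 3 lists. The other counts stayed within 1.5 times. The middle share was 62.3%, 61.6%, 61.1% and 61.6% with 1 transcript per gene, 87.9%, 87.2%, 76.4% and 74.5% by the interval's centre, 44.7%, 43.9%, 42.0% and 42.1% in the narrower window, and 63.9%, 63.0%, 62.0% and 62.1% on transcripts of at least 1000 bases. A −log10 q of at least 5 gave 66.0%, 62.6% and 62.6% in wild type IgG and the knockout lists, and a fold of at least 2 gave 65.9% in wild type IgG. The median fold was 4.30, 4.32, 5.11 and 5.41 at the stricter q, 3.77, 3.76, 4.90 and 5.12 with 1 transcript per gene, and 4.14, 4.16, 4.80 and 4.98 by the centre. In the wild type lists it was 4.42 and 4.39 at a fold of at least 2 and 3.59 and 3.56 on the longer transcripts.

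Overlap is given for wild type IP in its IgG, knockout IP in its IgG, wild type IP in knockout IP and wild type IgG in knockout IgG. Sharing 50% of both peaks gave 91.4%, 69.7%, 45.4% and 37.7%, and summits within 50 bases 67.1%, 62.6%, 27.3% and 26.4%. With 1 transcript per gene it was 98.1%, 92.6%, 87.6% and 84.3%, by the centre 97.7%, 91.5%, 80.7% and 77.0%, and on longer transcripts 97.2%, 90.6%, 80.4% and 77.2%. Overlap with middle peaks alone gave 95.6%, 88.3%, 74.2% and 70.1%, and overlap per gene 97.7%, 91.0%, 83.0% and 79.4%. A fold of at least 2 gave 97.2% in the first, 81.0% in the third and 77.7% in the fourth, and the stricter q 75.9% and 71.9% in the last 2. The antibody pairs exceeded the genotype pairs under each of these settings.

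Genes passing the RNA test in wild type alone, both and knockout alone numbered 404, 2723 and 556 with the knockout libraries kept apart (5476 of all 16040 tested), and 71, 590 and 93 with DESeq2 (1042 of 16277). With the replicate number as a block and the knockout libraries kept apart they were 374, 2490 and 518 (4983 of 16040). Without knockout RNA replicate 1 the median log2 fold changes were -0.01, 0.02 and -0.03, and without replicate 2 they were -0.01, 0.02 and -0.04. Without a wild type RNA library no residual degree of freedom was left, so no count could be given. For efficiency, the counts were 10, 194 and 33 with the block and the knockout libraries kept apart (266 of all 11617 tested), and 1, 5 and 1 with the libraries kept apart and no block (7 of 11617). They were 6, 43 and 8 with no filter on low counts (71 of 17529), and 0, 24 and 0 with DESeq2 (24 of 10299). Leaving out 1 library gave 0 to 1, 0 to 4 and 0 to 1. TEDC2 was the 1 gene called, and without any of the wild type RNA-seq, any Ribo-seq library, or knockout RNA-seq replicate 2 no gene of its class passed. Same-numbered samples had deviations correlated at -0.01 in RNA (12707 genes) and 0.31 in footprints (5581 genes), and the labels do not tie the numbers; with 2 pairs, pairing was not established. Ribo-seq libraries held 621287 to 1220308 counts, fewer than any RNA-seq library; the part of depth in the number of efficiency calls was not tested.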
